A study of Mus musculus with 10 samples.

Results

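Genes that encode amino acid transporters or their shared subunit were followed in the left ventricle (LV) of young mice with a constricted ascending aorta. The 10 genes were taken by symbol from the deposited tables of 55401 genes, and were Slc7a5, Slc3a2, Slc7a8, Slc7a1, Slc7a2, Slc7a6, Slc1a5, Slc38a1, Slc38a2 and Slc38a10. All except Slc7a8 reached the mean level of 1 FPKM needed for testing. The comparison asked whether Slc7a5, the gene of the kynurenine (Kyn) transporter, moved alone or together with other amino acid carriers.

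RNA was sequenced from the LV of 5 mice after neonatal ascending aorta constriction (nAAC) and 5 mice after a sham operation, all wild type and 4 weeks old, with 1 library per mouse. Both groups were operated on as newborns and stayed with their mothers. The whole LV was used, so a transcript can come from any of its cell types, and fewer cells of a type cannot be told apart from less RNA per cell. Levels are given as FPKM, the fragments per kilobase of transcript scaled to the sequenced total, which corrects for gene length and library size. The files hold no read counts, and the depth of each library was not estimated from the other columns.

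Amino acids cross the cell membrane through carriers that differ in substrate and in driving force. LAT1, the protein of Slc7a5, exchanges large neutral amino acids such as leucine and tryptophan, and also carries Kyn. It needs a covalently bound heavy chain, 4F2hc, the protein of Slc3a2, to reach the cell surface. Sodium-dependent carriers such as ASCT2 (Slc1a5) and SNAT2 (Slc38a2) bring in glutamine and other small neutral amino acids, and LAT1 can export glutamine in exchange for leucine. Leucine in turn activates the growth regulator mTORC1, and several carrier genes are targets of the stress factor ATF4.

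Slc7a5 did not move alone. Of the 9 members tested, 8 were higher in nAAC than in sham mice and 1, Slc7a1, was lower, by limma with Benjamini-Hochberg adjustment over 11867 genes and a threshold of 0.05. Over all genes tested, 27.1% passed upward and 4.6% passed downward. The median log2 FC was 0.67 for the tested members and 0.22 for all genes. With median-ratio scaling of the libraries, which brought the median of all genes to about 0, 6 members were higher and 1 was lower, against 13.2% and 12.1% of all genes. The members were chosen with earlier results of these data known, so their count is a description. Slc7a5 and Slc7a2 had sham means below 1 FPKM and reached the filter through their nAAC values. Without a filter all 10 members entered the fit, 7 rose and 1 fell, with limma adjusted p of 0.000351 for Slc7a5 and 0.0307 for Slc7a2. In the fit without a filter 3412 of 29309 genes rose and 623 fell. Slc7a5 and Slc1a5 also passed the log2 FC of 1 that defines a differentially expressed gene (DEG), as did 5.01% of all genes upward and 0.893% downward.

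**Figure D1:**
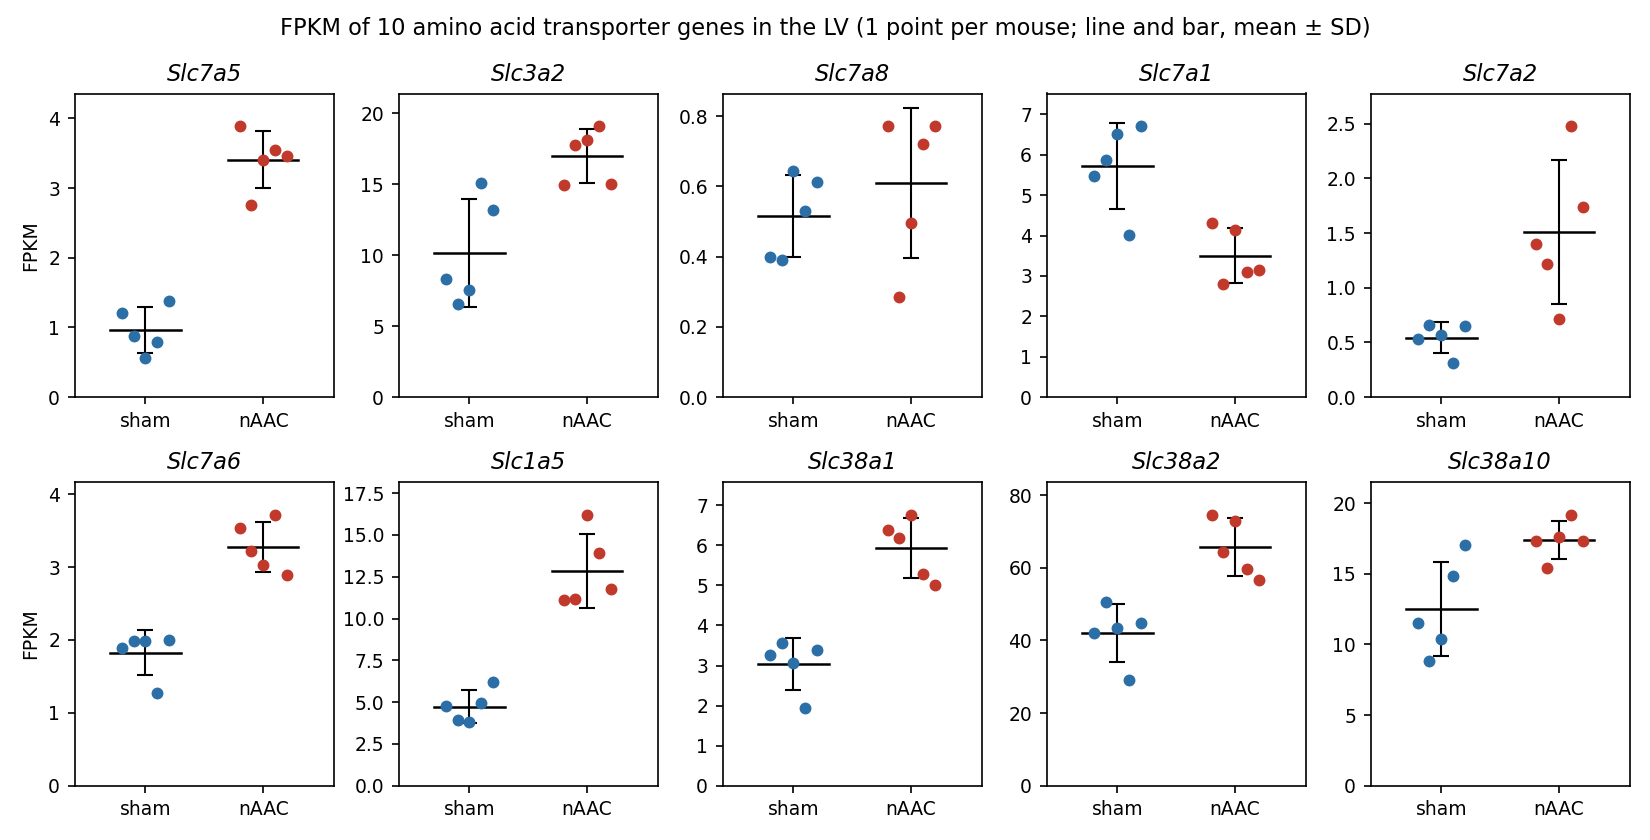
FPKM of each of the 10 carrier genes in every mouse, with nAAC and sham side by side and 1 point per mouse. Each panel has its own axis, and the bars give the mean and SD of 5 mice. Slc7a5, Slc7a2, Slc7a6, Slc1a5, Slc38a1 and Slc38a2 had all nAAC points above all sham points, and Slc7a1 had the lower values in nAAC.

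Slc7a5 (ENSMUSG00000040010, chr8:121881150-121907694, minus strand, mm10) encodes LAT1, the light chain of the system L exchanger. It was at 3.89, 2.755, 3.402, 3.543 and 3.453 FPKM in the 5 nAAC mice and at 1.214, 0.8757, 0.5613, 0.7909 and 1.384 FPKM in the 5 sham mice. Every nAAC mouse was above every sham mouse, and nAAC 2 was the lowest of its group. The means were 3.41 ± 0.412 and 0.965 ± 0.331 FPKM (SD, n = 5 each), a 3.53-fold difference. The log2 FC, taken on log2(FPKM + 1) throughout, was 1.18 (SE 0.13, limma adjusted p = 2.42e-05). The added 1 understates the change of weakly expressed genes, and with 0.1 in its place the log2 FC of Slc7a5 was 1.77. A gene annotated on the opposite strand, Gm20388, was listed at 0 in all libraries.

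Slc3a2 (ENSMUSG00000010095, chr19:8706882-8723369, minus strand) encodes 4F2hc, the heavy chain that LAT1 shares with other SLC7 light chains. Its FPKM was 14.94, 17.75, 18.16, 19.11 and 14.99 in nAAC mice and 8.307, 6.564, 7.561, 15.12 and 13.22 in sham mice. The groups overlapped, since sham 4 exceeded nAAC 1 and nAAC 5. The means were 16.99 ± 1.91 and 10.15 ± 3.78 FPKM, and the log2 FC was 0.75 (SE 0.20, limma adjusted p = 0.0121). The call was lost when Xist was a covariate (0.53, adjusted p = 0.132) and among the 6 libraries with the Y-linked gene Ddx3y listed at 0 (0.23, adjusted p = 0.386).

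Slc7a8 (ENSMUSG00000022180, chr14:54722209-54781946, minus strand) encodes LAT2, the other system L light chain that pairs with 4F2hc. It was at 0.7721, 0.2852, 0.4968, 0.7199 and 0.7708 FPKM in nAAC mice and at 0.3997, 0.3917, 0.6442, 0.5288 and 0.6139 FPKM in sham mice. In nAAC, 3 mice were above all sham mice and 1 was below all of them. Its mean stayed under the 1 FPKM needed for testing, and in the fit without this filter the log2 FC was 0.08 (SE 0.10, limma adjusted p = 0.649). Slc7a5 and Slc7a8 together came to 4.02 ± 0.61 FPKM in nAAC and 1.48 ± 0.329 FPKM in sham mice, so the system L light chain transcripts were 2.71 times as abundant in nAAC. By mean, Slc7a5 was the larger part in both groups, at 3.41 against 0.609 FPKM in nAAC and 0.965 against 0.516 FPKM in sham mice.

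Slc7a6 (ENSMUSG00000031904, chr8:106168857-106198706, plus strand) encodes y+LAT2, a further partner of 4F2hc that exchanges cationic for neutral amino acids. Its FPKM was 3.534, 3.222, 3.026, 3.721 and 2.885 in nAAC mice and 1.895, 1.986, 1.983, 1.27 and 2.001 in sham mice. The groups did not overlap, and 4 of the sham values lay close together with sham 4 below them. The log2 FC was 0.60 (SE 0.11, limma adjusted p = 0.00137), with means of 3.28 ± 0.347 and 1.83 ± 0.314 FPKM.

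The cationic amino acid carriers moved in opposite directions. Slc7a1 (ENSMUSG00000041313, chr5:148327410-148399904, minus strand) encodes CAT1, the widely expressed carrier of arginine and lysine. It was at 4.319, 2.794, 4.149, 3.11 and 3.152 FPKM in nAAC mice and at 5.475, 5.879, 6.519, 4.019 and 6.71 FPKM in sham mice. Sham 4 was below nAAC 1 and nAAC 3, and the other sham mice were above every nAAC mouse. The means were 3.505 ± 0.683 and 5.72 ± 1.07 FPKM, and the log2 FC was -0.57 (SE 0.14, limma adjusted p = 0.0088). Among the libraries with Ddx3y listed at 0 its log2 FC was -0.42 (adjusted p = 0.21).

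Slc7a2 (ENSMUSG00000031596, chr8:40862396-40922308, plus strand) encodes CAT2, a carrier of the same substrates. It was at 1.403, 1.216, 0.7169, 2.479 and 1.739 FPKM in nAAC mice and at 0.5353, 0.6576, 0.5666, 0.3134 and 0.6541 FPKM in sham mice. All nAAC mice were above all sham mice, although nAAC 3 came close to the highest sham mouse. The annotated gene Gm26584 overlaps its start and was not analysed here, and the use of strand in counting is not given. The log2 FC was 0.67 (SE 0.16, limma adjusted p = 0.00828), with 1.51 ± 0.656 and 0.545 ± 0.140 FPKM on average. It missed the threshold with Xist as a covariate (0.62, adjusted p = 0.0586) and among the libraries with Ddx3y listed at 0 (0.76, adjusted p = 0.0725).

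The ratio of Slc7a2 to Slc7a1 was 0.456 ± 0.236 in nAAC and 0.0944 ± 0.0128 in sham mice, without overlap (two-sided exact permutation p = 0.0079, n = 5 each, the smallest p this design allows). The sum of the pair was 5.02 ± 0.685 FPKM in nAAC and 6.27 ± 1.2 FPKM in sham mice, and these groups overlapped (exact permutation p = 0.1). Slc7a1 was the more abundant of the pair in every mouse.

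Slc1a5 (ENSMUSG00000001918, chr7:16781340-16798274, plus strand) encodes ASCT2, a sodium-dependent exchanger of glutamine, serine and alanine. It was at 11.13, 11.16, 16.22, 13.89 and 11.78 FPKM in nAAC mice and at 4.753, 3.951, 3.794, 4.95 and 6.23 FPKM in sham mice. The groups were far apart, the lowest nAAC mouse standing at 11.13 FPKM and the highest sham mouse at 6.23 FPKM. The log2 FC was 1.27 (SE 0.14, limma adjusted p = 2.8e-05), with means of 12.84 ± 2.2 and 4.74 ± 0.973 FPKM. Its order against Slc7a5 depended on the scale, since with 0.1 added in place of 1 the log2 FC was 1.43 for Slc1a5 and 1.77 for Slc7a5, and the fold of the means was 2.71 and 3.53. Both fell below the log2 FC of 1 when trends with GC content and transcript length were removed, with 0.87 for Slc1a5 and 0.77 for Slc7a5, and both still passed the adjusted p.

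Slc38a1 (ENSMUSG00000023169, chr15:96571418-96642913, minus strand) encodes SNAT1, a sodium-coupled glutamine carrier of system A. It was at 6.383, 6.186, 6.769, 5.273 and 5.008 FPKM in nAAC mice and at 3.255, 3.572, 3.066, 1.937 and 3.393 FPKM in sham mice. The groups did not overlap, and sham 4 was the lowest of all. The log2 FC was 0.79 (SE 0.14, limma adjusted p = 0.000829), and the means were 5.92 ± 0.751 and 3.045 ± 0.647 FPKM.

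Slc38a2 (ENSMUSG00000022462, chr15:96687392-96699730, minus strand) lies next to Slc38a1 and encodes SNAT2, the system A carrier that cells induce on amino acid shortage. It was the most abundant of the 10 transcripts, with 74.69, 64.47, 72.89, 59.65 and 56.56 FPKM in nAAC mice and 41.98, 50.71, 43.52, 29.08 and 44.73 FPKM in sham mice. The groups did not overlap. The log2 FC was 0.65 (SE 0.15, limma adjusted p = 0.00686), with means of 65.7 ± 7.97 and 42.0 ± 7.94 FPKM. This call depended on the scaling of the libraries, since median-ratio scaling gave 0.37 (adjusted p = 0.148) and upper-quartile scaling 0.38 (adjusted p = 0.154).

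The ratio of Slc38a1 to Slc38a2 was 0.0902 ± 0.00414 in nAAC and 0.0722 ± 0.00446 in sham mice and did not overlap (exact permutation p = 0.0079, n = 5 each). Slc38a2 outweighed Slc38a1 by more than 10 to 1 in all mice, and together they came to 71.6 ± 8.67 FPKM in nAAC and 45.0 ± 8.57 FPKM in sham mice.

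Slc38a10 (ENSMUSG00000061306, chr11:120103960-120151346, minus strand) encodes SNAT10, a less studied member of the same family. It was at 17.34, 15.43, 17.6, 19.2 and 17.36 FPKM in nAAC mice and at 11.49, 8.806, 10.42, 14.86 and 17.02 FPKM in sham mice. In nAAC, 4 mice were above all sham mice, and sham 5 was above nAAC 2. Its log2 FC was the smallest of the called increases, 0.48 (SE 0.16, limma adjusted p = 0.0362), and the call was lost in 15 of 24 alternative analyses. Leaving out nAAC 1, 3, 4 or 5 or sham 1, 2 or 3 ended it, with log2 FC of 0.37 to 0.48. Among the others, median-ratio scaling gave 0.21 (adjusted p = 0.249) and removal of GC content and length trends gave 0.02 (adjusted p = 0.912). A gene on the opposite strand, Gm11769, reached at most 0.0783 FPKM.

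**Figure D2:**
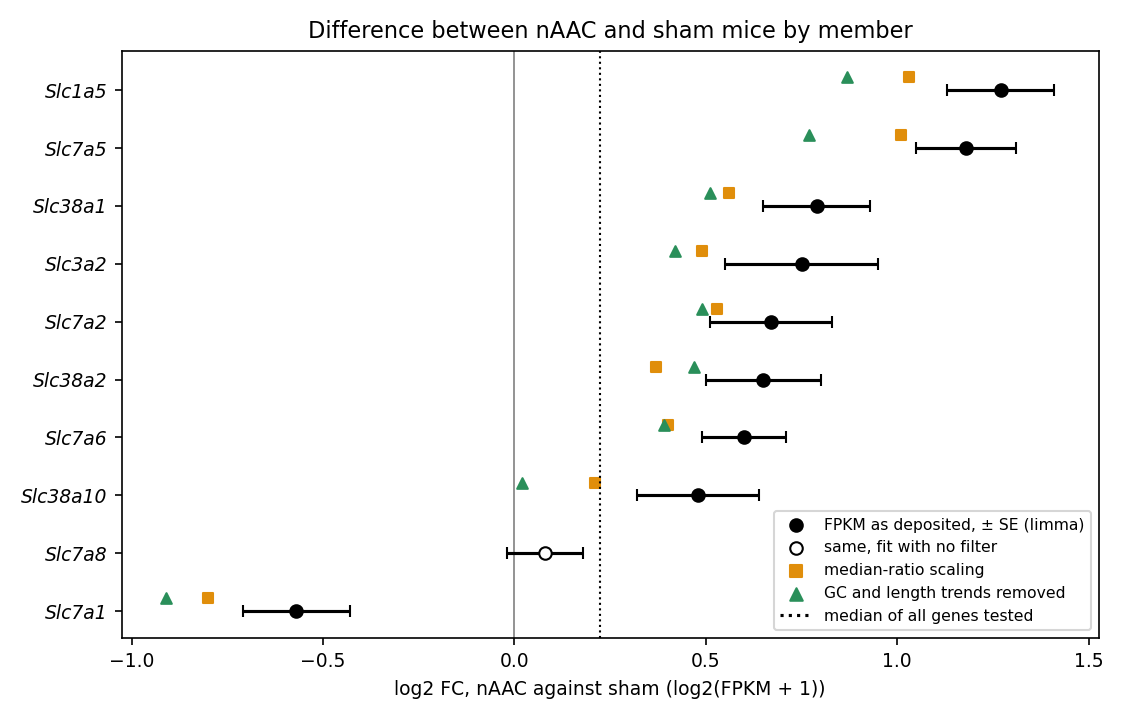
Log2 FC of the 10 carrier genes between nAAC and sham LV on log2(FPKM + 1), as filled circles with the SE of the fit over 5 mice per group, an open circle for Slc7a8 from the fit without a filter, squares for median-ratio scaling, triangles for GC content and length trends removed, and a dotted line at the median of all genes tested. Slc1a5 and Slc7a5 lie farthest to the right at 1.27 and 1.18, and Slc7a1 lies to the left of 0 at -0.57.

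In 6 of the 9 tested members every nAAC mouse was above every sham mouse, and in none was every nAAC mouse below. Over all tested genes these shares were 18.9% and 3.46%. The exceptions were Slc3a2, Slc38a10 and Slc7a1. The summed FPKM of the 10 members was 117.7 to 143.4 in nAAC mice and 72.87 to 95.96 in sham mice, a sum dominated by Slc38a2.

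The order of levels was similar in both groups at its top and bottom and changed in between. In sham mice the order was Slc38a2, Slc38a10, Slc3a2, Slc7a1, Slc1a5, Slc38a1, Slc7a6, Slc7a5, Slc7a2 and Slc7a8 by mean FPKM, which is a per-length scale. Of these neighbours, the ranges over mice were separate for Slc38a2 and Slc38a10 and for Slc1a5 and Slc38a1, and overlapped for the others. In nAAC mice Slc1a5 and Slc38a1 stood above Slc7a1, and the ranges of Slc38a1 and Slc7a1 were separate. Slc7a5 was at the same level as Slc7a1 and Slc7a6 in nAAC mice within the spread, at 3.41, 3.505 and 3.28 FPKM, each of these neighbours being higher in 3 of 5 mice than the next one.

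To ask whether Slc7a5 moved differently from each of the other carriers, its log2(FPKM + 1) minus that of the other gene was compared between the groups. This difference is taken within a mouse and was compared by two-sided exact permutation tests, 9 in all, adjusted over these 9 comparisons. Slc7a5 gained on 6 of the 9. The gain was 1.75 over Slc7a1, 1.1 over Slc7a8, 0.7 over Slc38a10 and 0.58 over Slc7a6, each with all 5 nAAC mice above all sham mice (exact permutation p = 0.0079, adjusted p = 0.018). It was 0.53 over Slc38a2 (exact permutation p = 0.016, adjusted p = 0.029) and 0.51 over Slc7a2 (exact permutation p = 0.032, adjusted p = 0.048).

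For the remaining 3 carriers a different movement was not shown on this scale. With 0.1 added in place of 1, 7 comparisons passed. Against Slc1a5 the difference was -0.1 (exact permutation p = 0.48), with Slc7a5 lower by 1.64 ± 0.24 in nAAC and 1.55 ± 0.15 in sham mice on the log2 scale. Its sign depended on the added 1, since with 0.1 the log2 FC was 1.77 for Slc7a5 and 1.43 for Slc1a5. Against Slc38a1 it was 0.39 (exact permutation p = 0.048, adjusted p = 0.061), and against Slc3a2, its own heavy chain, 0.43 (exact permutation p = 0.095, adjusted p = 0.11). As a ratio of FPKM, without the added 1, Slc7a5 to Slc3a2 was 0.204 ± 0.0415 in nAAC and 0.102 ± 0.0393 in sham mice and the groups did not overlap (exact permutation p = 0.0079). The lowest nAAC ratio was 0.1552 and the highest sham ratio 0.1461, so the separation was narrow and depended on the scale. The 6 sums and ratios given here were chosen after the values had been seen. Adjusted over the 6, p was 0.0095 for those with the smallest p.

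**Figure D3:**
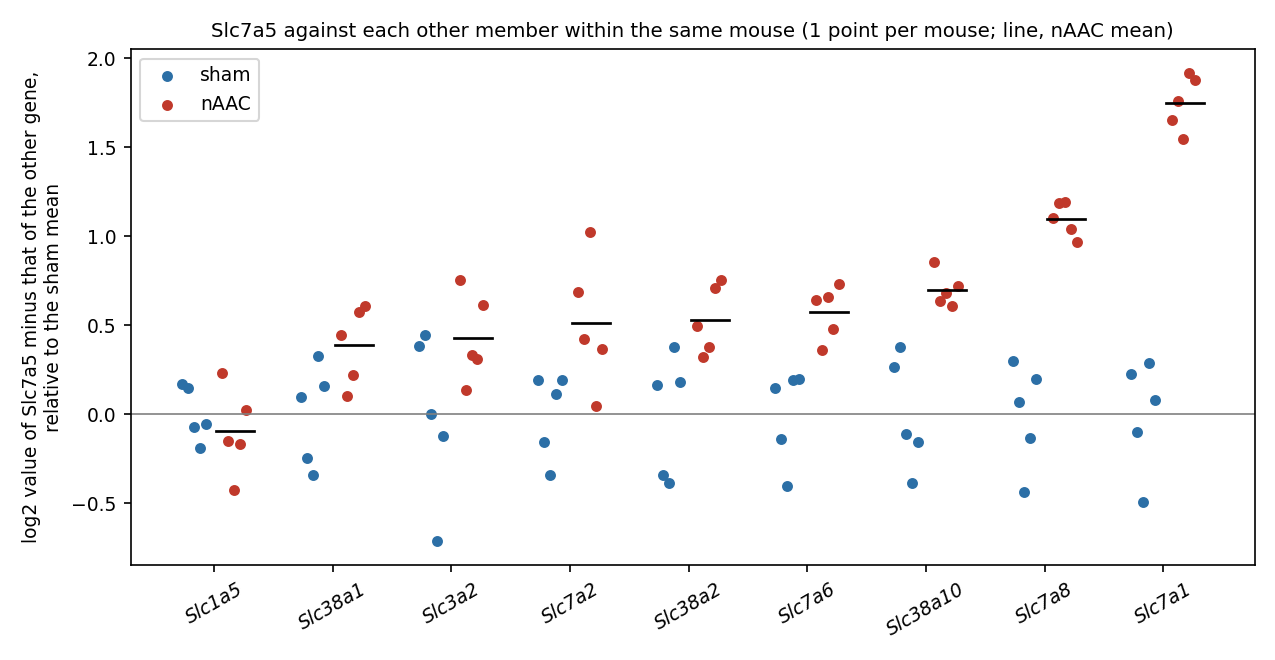
Difference between Slc7a5 and each other carrier within a mouse, as log2(Slc7a5 FPKM + 1) minus log2(other FPKM + 1), set so that the sham mean is 0, with 1 point per mouse and a line at the nAAC mean. The nAAC points lie above all sham points for Slc7a8, Slc7a1, Slc7a6 and Slc38a10, and the groups mix for Slc1a5.

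**Figure D4:**
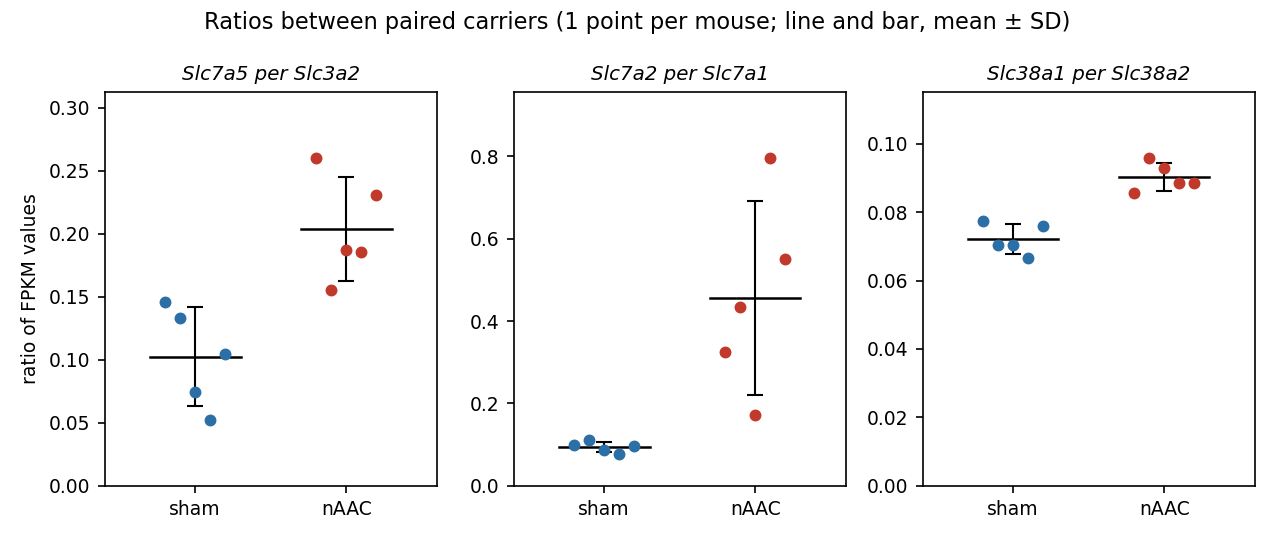
Ratios of FPKM between paired carriers in each mouse, with the mean and SD of 5 mice per group. Slc7a5 per Slc3a2, Slc7a2 per Slc7a1 and Slc38a1 per Slc38a2 are each higher in all nAAC mice than in all sham mice.

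Among mice of the same group, the carriers were not shown to vary with Slc7a5. After the group means were removed, Pearson's r with Slc7a5 over the 10 mice ranged from 0.19 for Slc3a2 (Spearman's rho 0.19) to 0.56 for Slc1a5 (rho 0.54), whose exact permutation p was 0.13. None of the 9 correlations passed, either adjusted (0.68 for each) or unadjusted. The correlations were repeated without sham 3 and sham 4, the mice farthest from the median of Slc7a5. Then r went from 0.29 to 0.82 for Slc7a8, from 0.52 to 0.77 for Slc38a10 and from 0.35 to 0.60 for Slc7a1. It went from 0.19 to 0.42 for Slc3a2, from 0.25 to -0.18 for Slc38a1 and from 0.21 to -0.10 for Slc38a2. Several values thus rested on those mice, while r for Slc1a5 was 0.49. Over all tested genes, the patterns most like that of Slc7a5 by this measure were those of Chd1l (r = 0.96), Ipo4 (0.93), Stx5a (0.91), Ncstn (0.91) and Plec (0.91), as a description over 10 mice. Of these, Ipo4 and Plec were also higher in nAAC mice, with log2 FC of 0.71 and 1.09, and Chd1l, Stx5a and Ncstn had log2 FC of -0.13, 0.16 and 0.08 that did not pass.

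RefSeq promoters of GRCm38.p6, from 250 bases before to 50 after the start, were matched for 6 members, which have 8 promoters. Slc7a5, Slc7a2, Slc1a5 and Slc38a1 had no promoter in the set used and were not searched. Kyn activates the aryl hydrocarbon receptor (AHR), whose binding sites share the core GCGTG. This core was searched on both strands and occurred in 32.4% of 32851 promoters. Among the members it was found in the promoters of Slc38a10, Slc38a2, Slc7a6 and 1 of the 2 of Slc7a1, and not in these windows of Slc3a2 and Slc7a8. The Slc7a1 match was in the promoter that lies within the annotated gene, and the promoter at the start of the gene had none. The E-box CACGTG, present in 7.15% of promoters, and the C/EBP-ATF element TGATGNAA, present in 3.97%, had no match in any of the 8. A match describes the letters alone, and sites outside these windows were not searched. The 3 promoters below are shown because Slc7a6 had the most matches, Slc38a2 was the most abundant carrier and Slc3a2 is the partner of LAT1 without a match, and capitals mark GCGTG or its reverse complement CACGC.
Slc7a6 promoter, chr8:106168604-106168903, plus strand: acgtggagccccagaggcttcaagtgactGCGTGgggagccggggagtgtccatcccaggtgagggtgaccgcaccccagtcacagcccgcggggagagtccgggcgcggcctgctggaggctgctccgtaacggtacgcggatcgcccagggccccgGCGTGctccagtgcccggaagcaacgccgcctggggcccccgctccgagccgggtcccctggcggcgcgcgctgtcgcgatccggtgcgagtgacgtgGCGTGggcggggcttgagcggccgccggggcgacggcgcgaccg
Slc38a2 promoter, chr15:96699679-96699978, minus strand: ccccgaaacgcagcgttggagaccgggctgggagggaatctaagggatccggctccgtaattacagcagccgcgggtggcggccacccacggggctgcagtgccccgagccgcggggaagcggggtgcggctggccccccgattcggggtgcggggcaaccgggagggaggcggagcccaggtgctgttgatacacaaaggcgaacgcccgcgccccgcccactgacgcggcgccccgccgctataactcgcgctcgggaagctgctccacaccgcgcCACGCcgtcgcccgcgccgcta
Slc3a2 promoter, chr19:8713848-8714147, minus strand, within the annotated gene: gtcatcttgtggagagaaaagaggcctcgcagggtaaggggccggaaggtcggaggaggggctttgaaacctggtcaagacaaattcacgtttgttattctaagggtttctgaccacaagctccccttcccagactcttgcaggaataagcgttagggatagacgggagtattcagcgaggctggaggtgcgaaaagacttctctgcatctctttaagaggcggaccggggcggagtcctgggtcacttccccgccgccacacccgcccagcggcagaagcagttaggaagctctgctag

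Of 31 other amino acid carriers at the plasma membrane, 6 reached the level for testing, 3 rose and none fell, against 27.1% and 4.6% of all genes, with a median log2 FC of 0.39 against 0.22. The absence of decreases holds for this list alone, since Slc36a2, placed below with the lysosomal, intracellular and orphan carriers, fell. Slc38a4, the system A carrier SNAT4, was at 7.58 ± 1.22 FPKM in nAAC and 3.59 ± 0.665 FPKM in sham mice without overlap (log2 FC 0.90, limma adjusted p = 0.000327). Slc43a2, the sodium-independent neutral amino acid carrier LAT4, was at 3.50 ± 0.555 and 1.96 ± 0.751 FPKM (0.63, adjusted p = 0.0101). Slc7a7, the y+LAT1 light chain of 4F2hc, was at 1.48 ± 0.179 and 0.964 ± 0.167 FPKM (0.34, adjusted p = 0.0242), and this call was lost in 10 of 24 alternatives, among them leaving out nAAC 3, 4 or 5 (adjusted p 0.0513 to 0.0599). The sham mean of Slc7a7 was below 1 FPKM, and it reached the filter through its nAAC values. Without a filter its limma adjusted p was 0.0378. With median-ratio scaling 1 of the 6 rose and 2 fell, against 13.2% and 12.1% of all genes.

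Among carriers just under the 1 FPKM filter, a pair is named after their values were seen. Slc1a3 (EAAT1), a glutamate carrier, was at 1.55 ± 0.478 FPKM in nAAC and 0.420 ± 0.0925 FPKM in sham mice. Slc1a4 (ASCT1), a carrier of serine and alanine, was at 1.54 ± 0.291 and 0.377 ± 0.14 FPKM. Neither overlapped between the groups, and without the filter their log2 FC were 0.83 (limma adjusted p = 0.00297) and 0.88 (adjusted p = 0.000567). Slc16a10 (TAT1), a carrier of aromatic amino acids, was at 3.01 ± 0.358 and 3.85 ± 0.438 FPKM, with every nAAC mouse below every sham mouse (at most 3.422 against at least 3.435 FPKM), and did not pass (-0.27, limma adjusted p = 0.0665). Slc7a11, the cystine carrier xCT, did not exceed 0.0404 FPKM, and Slc6a5, Slc6a18, Slc7a9, Slc7a10 and Slc7a12 were listed at 0 in all libraries.

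Of the lysosomal, intracellular and orphan carriers, 10 of 15 were tested, 3 rose and 1 fell, against 27.1% and 4.6% of all genes. Their median log2 FC was 0.30. The share of increases was near that of all genes and the median near the 0.22 of all genes. Slc15a4, a lysosomal histidine and peptide carrier, was at 4.49 ± 0.91 FPKM in nAAC and 2.195 ± 0.317 FPKM in sham mice (0.77, limma adjusted p = 0.000888). Ctns, the lysosomal cystine exporter, was at 4.65 ± 0.32 and 3.27 ± 0.741 FPKM (0.42, adjusted p = 0.0213), and Slc38a11 at 1.5 ± 0.42 and 0.736 ± 0.325 FPKM (0.53, adjusted p = 0.0236). Slc36a2 (PAT2), a proton-coupled carrier of glycine and proline, fell by 1.43 on the log2 scale, from 5.11 ± 0.679 FPKM in sham to 1.315 ± 0.547 FPKM in nAAC mice, without overlap (limma adjusted p = 2.9e-05). Where its protein sits in the cell was not examined. The calls of Ctns and Slc38a11 were each lost in 9 of 24 alternatives, among them leaving out nAAC 4, sham 1 or sham 3 for Ctns (adjusted p 0.0508 to 0.0567) and nAAC 2, 4 or 5 or sham 1 for Slc38a11 (0.0506 to 0.0618). The sham mean of Slc38a11 was below 1 FPKM, and it reached the filter through its nAAC values. Without a filter it was not called (limma adjusted p = 0.0683). With median-ratio scaling 1 of the 10 rose and 1 fell, against 13.2% and 12.1% of all genes.

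**Figure D5:**
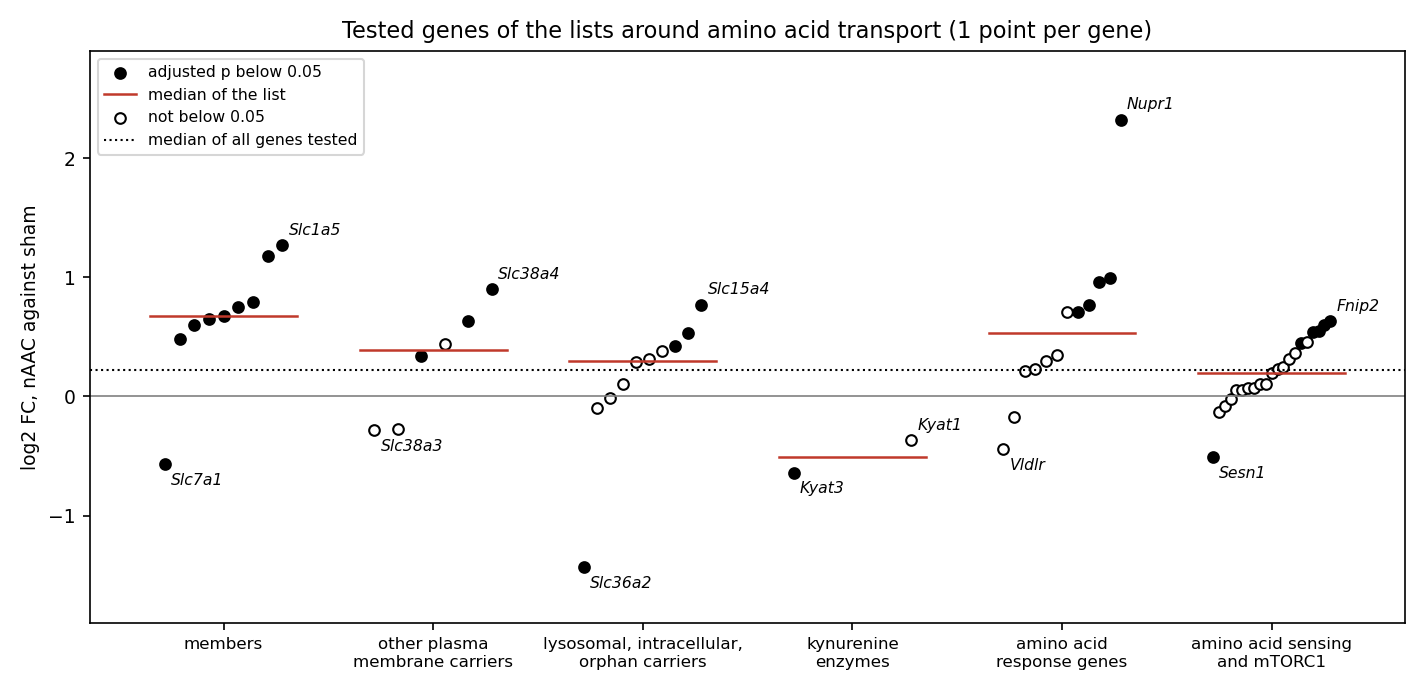
Log2 FC on log2(FPKM + 1) of each tested gene in the carrier lists, the kynurenine pathway enzymes, the amino acid response genes and the amino acid sensing genes, 1 point per gene, filled where the adjusted p was below 0.05, with a line at each list median and a dotted line at the median of all genes, 0.22. Most members lie above that line, while the amino acid sensing genes spread around it.

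Enzymes of the kynurenine pathway were mostly at low levels in the LV. Of 12 in the tables, 2 were tested. Kyat3, a kynurenine aminotransferase that makes kynurenic acid, fell by 0.64 on the log2 scale, from 7.71 ± 1.35 FPKM in sham to 4.54 ± 0.512 FPKM in nAAC mice, without overlap (limma adjusted p = 0.00182). Kyat1, a related aminotransferase, was at 7.94 ± 1.08 FPKM in nAAC and 10.67 ± 2.37 FPKM in sham mice (-0.37, adjusted p = 0.0717) and passed with median-ratio scaling. The highest value in any library was 0.322 FPKM for Ido1, 0.0741 FPKM for Ido2 and 0.112 FPKM for Tdo2, the enzymes that open the tryptophan ring, and 0.291 FPKM for Kmo and 0.0279 FPKM for Kynu, which act on Kyn itself.

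Among the genes of the amino acid response, the program by which ATF4 answers amino acid shortage, 12 of 14 were tested, 5 rose and none fell, against 27.1% and 4.6% of all genes, with a median log2 FC of 0.53. Nupr1, a stress-induced chromatin protein, rose from 2.40 ± 1.28 FPKM in sham to 15.5 ± 3.43 FPKM in nAAC mice (2.32, limma adjusted p = 1.06e-05). Asns, asparagine synthetase, rose from 0.672 ± 0.114 to 2.30 ± 0.623 FPKM (0.96, adjusted p = 0.000107). Its sham mean was below 1 FPKM, and it reached the filter through its nAAC values. Without a filter its limma adjusted p was 0.000988. Ddit3 (CHOP) rose from 7.97 ± 2.24 to 16.6 ± 3.45 FPKM (0.99, adjusted p = 0.00161) and Atf4 itself from 22.8 ± 3.08 to 39.95 ± 6.4 FPKM (0.77, adjusted p = 0.00148). These 4 genes had no overlap between the groups, and 18.9% of all genes tested had every nAAC mouse above every sham mouse. They are the called genes with the largest log2 FC, so the list rose only in part. Among the tested genes not called, named after their values were seen, were Trib3 (0.21, limma adjusted p = 0.252) and Chac1 (-0.17, adjusted p = 0.466). Others were Ddit4 (0.35, adjusted p = 0.486) and Cebpb (0.23, adjusted p = 0.502). The rest lay nearer the threshold, with Eif4ebp1 at 0.71 (limma adjusted p = 0.0547), Cebpg at 0.30 (adjusted p = 0.083) and Vldlr at -0.44 (adjusted p = 0.0842). With median-ratio scaling 5 of the 12 rose and 1 fell, against 13.2% and 12.1% of all genes.

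Genes of amino acid sensing and mTORC1 were called in the main fit at shares close to those of all genes. Of 21 tested, 5 rose and 1 fell, against 27.1% and 4.6% of all genes, with a median log2 FC of 0.20. With median-ratio scaling 1 rose and 2 fell, against 13.2% and 12.1% of all genes. Fnip2, a partner of the folliculin complex, was at 3.55 ± 0.234 FPKM in nAAC and 1.985 ± 0.588 FPKM in sham mice (0.63, limma adjusted p = 0.00487). Rptor, the mTORC1 subunit Raptor, was at 5.75 ± 0.462 and 3.65 ± 0.677 FPKM (0.55, adjusted p = 0.00334). Lars, the leucyl-tRNA synthetase, was at 12.8 ± 1.15 and 8.43 ± 0.636 FPKM (0.54, adjusted p = 0.00165), and the Ragulator subunit Lamtor1 at 56.7 ± 6.4 and 38.6 ± 13.8 FPKM (0.60, adjusted p = 0.0404). The Lamtor1 call was lost in 15 of 24 alternatives, among them leaving out any mouse but nAAC 1, sham 4 or sham 5 (adjusted p 0.0783 to 0.101). The decrease, named after its value was seen, was that of Sesn1, a leucine-responsive inhibitor of mTORC1 (-0.51, limma adjusted p = 0.0132). No gene of the list fell with TPM or among the libraries with Ddx3y listed at 0.

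Markers of cell types were read against the 27.1% of all genes that rose. The 8 fibroblast markers gave 5 increases and a summed FPKM of 511 to 892.4 in nAAC against 372.4 to 400.6 in sham mice, and the 7 mural cell markers gave 5 increases and 269.7 to 393.7 against 179.5 to 285.5. Of the macrophage and leukocyte markers 2 of 7 tested rose (summed FPKM 138.1 to 275.6 and 90.85 to 196.9), and of the endothelial markers 2 of 8 (234.4 to 377.4 and 205 to 312.6), shares near that of all genes. Cardiomyocyte markers were abundant in all libraries, and 1 of 10 rose and 2 fell, against 27.1% and 4.6% of all genes. Their summed FPKM was 12320 to 20760 in nAAC and 15340 to 31650 in sham mice. None of the 5 erythroid and 4 atrial markers tested passed. The summed FPKM was 3396 to 8802 in nAAC and 2292 to 8661 in sham mice for erythroid markers, and 6.14 to 230.7 and 5.616 to 47.86 for atrial markers, so nAAC libraries differed widely in atrial transcripts. T cell markers summed to at most 2.155 FPKM. No marker was listed at 0 in all libraries. The part of cell composition in the carrier results was not tested.

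Ddx3y was above 0 in nAAC 2 and in sham 1, 2 and 3 and listed at 0 in the other libraries, so the groups differed in sex as far as this gene shows it. Among the 4 nAAC and 2 sham libraries with Ddx3y at 0, an analysis added after the data were seen, 5 members rose and none fell. These were Slc7a5 (log2 FC 1.14, limma adjusted p = 0.00229), Slc7a6, Slc1a5, Slc38a1 and Slc38a2. Of all 11867 genes tested in these libraries, 1190 rose and 550 fell. Mitochondrial transcripts took 32.85 to 39.86% of TPM in nAAC and 33.72 to 49.78% in sham mice, and rescaling without them left 9 members called.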

How the data were processed

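RNA from the LV of 5 nAAC and 5 sham mice was sequenced from Trizol extracts with a NEBNext Ultra RNA kit. The authors deposited 1 gene table per library, with mean coverage, FPKM and TPM per gene. The deposited coverage is reads per base, the deposited FPKM is corrected by the authors' tool for length and depth, and the deposited TPM is FPKM rescaled to a fixed total. The columns are those StringTie writes per gene. The aligner, the tool and the use of strand are not given in the sources used here. The submitters' processing notes name mm10, and 99.42% of 55141 shared genes had the coordinates of GENCODE M21.

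Between 12 and 21 rows per table shared a gene ID and were summed. FPKM was tested on log2(FPKM + 1) for genes with a mean of at least 1 FPKM, by limma 3.58.1 in R 4.3.3 with an empirical Bayes trend and Benjamini-Hochberg adjustment over 11867 genes. Calls had an adjusted p below 0.05, and DEGs an absolute log2 FC above 1 as well. Differences within mice, ratios and correlations were tested by two-sided exact permutation (Python 3.11.15, scipy 1.17.1, pandas 2.3.3), and figures were drawn with matplotlib 3.10.9. The fit was tested on simulated data. No groups or samples were left out, and no read counts could be used.

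The members and lists were chosen with earlier results of these data known. All members were named, with up to 4 called genes of largest absolute log2 FC from each list of carriers, kynurenine enzymes, amino acid response and sensing genes, and the 5 genes most like Slc7a5. Others are marked in the text or named for their role (Slc16a10, Slc7a11, Kyat1, Ido1, Ido2, Tdo2, Kmo and Kynu). Alternatives covered scaling, TPM, filters, pseudocount, thresholds, covariates, removal of GC content and length trends by loess, the replicate number as a block, and leaving out each mouse. Ddx3y as a covariate and the libraries with Ddx3y at 0 were added after the data were seen.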

Additional observations from a re-analysis of the deposited data

Results flagged for a closer look

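In 5 of 52 groups of 5 mice examined, 1 mouse lay far from the others, by the gap to its nearest neighbour as a share of the group's range (Dixon's critical value 0.71). Chance gives about 2.6 such groups, so single cases carry little weight. Sham 4 was the lowest of its group for Slc7a6 (1.27 FPKM, share 0.87) and for Slc38a1 (1.937 FPKM, share 0.73). Sham 3 was the lowest for Slc15a4 (1.634 FPKM, share 0.85). Among nAAC mice, nAAC 1 was the lowest for Atf4 (28.98 FPKM, share 0.74) and for Lamtor1 (45.42 FPKM, share 0.82).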

How the results depend on the processing

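The 9 tested members and 16 called genes of the other lists were followed through 24 alternatives, and none reversed its direction. Slc7a5 was called in all 24 (log2 FC 0.77 to 1.77, adjusted p 2.26e-05 to 0.00229), as were Slc7a6, Slc1a5 and Slc38a1. The 9 calls among members became 5 in the libraries with Ddx3y at 0 and otherwise ranged from 6, with Xist as a covariate, to 9. Leaving out single mice gave 8 to 9. The 7 calls among other carriers became 14 with TPM, 13 without a filter on low values, 4 with Ddx3y at 0 and 3 at an adjusted p below 0.01, and leaving out single mice gave 4 (without nAAC 4) to 9. The main fit had 6 increases and 1 decrease among them. Median-ratio or upper-quartile scaling gave 2 increases and 3 decreases, and removal of GC content and length trends gave 3 and 4. The 1 call among kynurenine enzymes became 2 with median-ratio scaling, upper-quartile scaling, rescaling without mitochondrial genes, Xist or Ddx3y as a covariate, Ddx3y at 0, and removal of GC content and length trends. The 5 calls among amino acid response genes became 8 with TPM and 2 with Ddx3y at 0. The 6 calls among amino acid sensing genes became 3 with median-ratio scaling, 2 with upper-quartile scaling, 2 with Ddx3y at 0 and 3 at an adjusted p below 0.01. Their 5 increases and 1 decrease became 2 and 3 with GC content and length trends removed. The causes were not tested. Slc7a5 differed from 6 other members in the main test and from 4 to 7 in the alternatives, and no alternative gave a passing correlation.

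Over all genes 3211 rose and 546 fell. These counts were 1563 and 1431 with median-ratio scaling, 1620 and 1359 with upper-quartile scaling, 5304 and 383 with TPM, 1593 and 390 with Xist as a covariate, 1190 and 550 with Ddx3y at 0, 1685 and 1883 with trends removed, and 1820 and 312 at an adjusted p below 0.01.

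Replicate numbers gave no clear sign of pairing, with correlations of deviations from -0.316 to 0.192. These values came without a test and cannot exclude a pairing. With the replicate number as a block 9 members were called and 6 other carriers (Slc7a7 missed the threshold), and 2929 genes rose and 497 fell. Depth was not estimated, so counting error at low levels such as those of Slc7a8 and Slc7a2 was not set apart. Calls of Lars and Fnip2 were lost with median-ratio and upper-quartile scaling, and that of Slc43a2 with both, with trends removed and at an adjusted p below 0.01. Those of Atf4 and Ddit3 were lost with Ddx3y at 0, and that of Rptor there and with trends removed.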
